A study of Mus musculus with 8 samples.

Results

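The enzymes that turn arachidonic acid into prostanoids and leukotrienes were examined in macrophages lacking Nudt21, an RNA-binding protein of the machinery that chooses where the 3′ end of an mRNA is cut. The group holds 7 genes, Ptgs1, Ptgs2, Ptges, Tbxas1, Hpgds, Alox5 and Alox5ap, which were taken by symbol from the 21080 genes of the deposited tables. All 7 were found at both times, and each had enough coverage to be tested in every comparison.

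The RNA of 8 samples came from bone marrow-derived macrophages (BMDMs), which are grown in culture from mouse bone marrow. The 4 groups of 2 samples were WT and Nudt21-cKO BMDMs at 0 h, and WT and Nudt21-cKO BMDMs after IFNγ priming overnight and LPS for 4 h. The labels also name IFNγ/LPS for the 0 h samples, and these were read as unstimulated from their titles and the study's methods. Nudt21-cKO mice carry a floxed Nudt21 gene and Cre recombinase driven by LysM, a gene of myeloid cells. The WT animals were littermates of the same sex that also had the LysM Cre, on the same C57BL/6 background, and no animal age is given in the labels. Each sample pooled the BMDMs of a pair of mice, so that the spread between the samples of a group is a spread between pools. The values are read coverage per base of each gene, which can be compared between genes because it does not grow with gene length. In bulk RNA of this kind, fewer cells of a type and less RNA per cell cannot be told apart.

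Arachidonic acid is released from membrane phospholipids by phospholipases and then enters one of several routes. The cyclooxygenases PTGS1 (COX-1, present in most resting cells) and PTGS2 (COX-2, induced by inflammatory signals) make the unstable intermediate prostaglandin H2. Terminal synthases turn that intermediate into single products: PTGES makes prostaglandin E2, TBXAS1 makes thromboxane A2 and HPGDS makes prostaglandin D2. On the other branch, ALOX5 (5-lipoxygenase) makes leukotriene A4 with the help of ALOX5AP (FLAP), a membrane protein that presents arachidonic acid to it. Macrophages are known to carry both branches and to make more prostaglandin E2 after exposure to LPS.

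At 0 h Nudt21 itself was covered 641- and 718-fold in WT and only 158- and 172-fold in cKO. After stimulation it was 547 and 575 in WT against 115 and 142 in cKO. The targeted gene thus matched the labels at both times, with a log2 fold change of -2.04 at 0 h and -2.13 at 4 h. All 8 macrophage markers listed, among them Adgre1, Csf1r and Cd68, had a mean coverage of at least 1 in every group. The mean was higher in cKO for 2 of the 8 at 0 h and for 3 at 4 h, and lower for the rest. At 0 h it was 22294 in WT and 14058 in cKO for Adgre1, 41478 and 28272 for Csf1r, and 44206 and 71406 for Cd68. The sum of the 8 at 0 h was 120530 to 129084 in WT and 123746 to 132928 in cKO. At 4 h it was 64070 to 65060 in WT and 70588 to 75278 in cKO. Coverage summed over genes was 15751245 to 17744522 at 0 h and 14950347 to 17954882 at 4 h, and the cKO samples were the higher at each time. The number of reads behind a value is not given in the sources used here, so that no counting error was computed. The median gene was higher in cKO by 0.10 at 0 h and by 0.31 at 4 h on the log2 scale. It fell by 1.27 with stimulation in WT and by 1.05 in cKO. For this reason changes of the 7 genes are also given relative to the median gene. On the deposited scale 83.3% of the genes called between genotypes at 4 h were higher in cKO, and after centring each sample on its median 51.2% were.

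Before stimulation the genes of the group covered a wide range of levels. In WT at 0 h the order of mean coverage was Alox5ap (3326), Hpgds (2395), Tbxas1 (2299), Ptgs1 (473), Ptges (62.7), Alox5 (40.1) and Ptgs2 (6.95). Hpgds and Tbxas1 were neighbours, and the ratio of Hpgds to Tbxas1 was 1.07 and 1.01 in the single WT samples. After IFNγ/LPS the order in WT was Ptgs2 (98551), Tbxas1 (3538), Alox5ap (1642), Hpgds (403), Ptges (309), Ptgs1 (82.2) and Alox5 (9.17). Ptgs2 thus went from the lowest place of the group to the highest. In cKO at 4 h Ptges (526) stood above Hpgds (425), the reverse of their order in WT, and Alox5ap (1445) stood above Tbxas1 (1273).

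**Figure D1:**
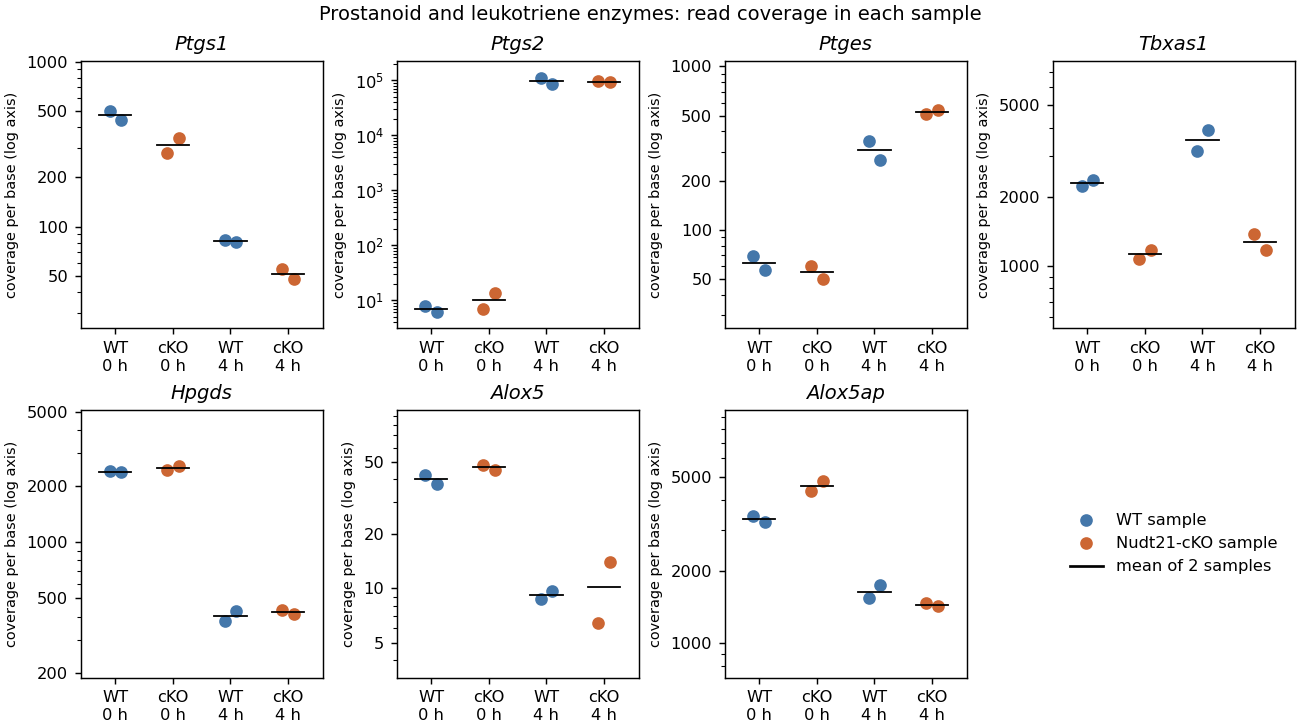
Read coverage per base (log axis, with its own range in each panel) of the 7 enzyme genes in the 2 samples of each group, WT in blue and Nudt21-cKO in orange, with the group mean as a line. Both Tbxas1 cKO samples lie below both WT samples at each time, and Ptgs2 rises from between 6.13 and 13.5 at 0 h to between 85893 and 111209 at 4 h.

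Genotypes and times were compared with limma on log2(coverage + 0.1) over every gene whose mean coverage reached 0.5. Calls follow the rule of the study, a fold change above 1.5 together with p under 0.05. Adjusted p-values are Benjamini-Hochberg values of limma over all genes tested. Comparisons of stimulation and of genotype share samples and are not independent of each other. The smallest two-sided p that exact permutation allows with 2 samples a group is 0.333, so the tests rest on limma's shared estimate of the spread.

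Stimulation moved nearly the whole group. In WT, 3 genes were called higher (Ptgs2, Ptges and Tbxas1) and 4 lower (Ptgs1, Hpgds, Alox5 and Alox5ap). Over all genes 11.9% were called higher and 55.1% lower, so that on the deposited scale a fall of coverage was the common outcome and a rise was not. After centring each sample on its median, 60.0% of the genes called in WT were higher, and 58.5% of those called in cKO. In cKO, 2 genes were called higher (Ptgs2 and Ptges) and 4 lower, beside 13.7% and 53.2% of all genes, and Tbxas1 was not called. An adjusted p under 0.05 was reached by 6 of the 7 genes in each genotype, beside 64.8% of all genes in WT and 69.7% in cKO.

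Between genotypes fewer genes of the group were called. At 0 h none was called higher and 2 were lower in cKO (Tbxas1 and Ptgs1), beside 8.99% of all genes called higher and 5.61% lower. At 4 h Ptges was called higher and Tbxas1 and Ptgs1 lower, beside 20.8% and 4.17% of all genes. No gene of the group reached an adjusted p under 0.05 in limma between genotypes at either time, where 1.03% of all genes did at 0 h and 3.86% at 4 h. At an unadjusted limma p under 0.05 there were 3 of the 7 at each time, beside 21.3% of all genes at 0 h and 34.3% at 4 h. The median log2 fold change of the 7 genes was 0.06 at 0 h, where that of all genes was 0.10, and -0.07 at 4 h, where that of all genes was 0.31.

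**Figure D2:**
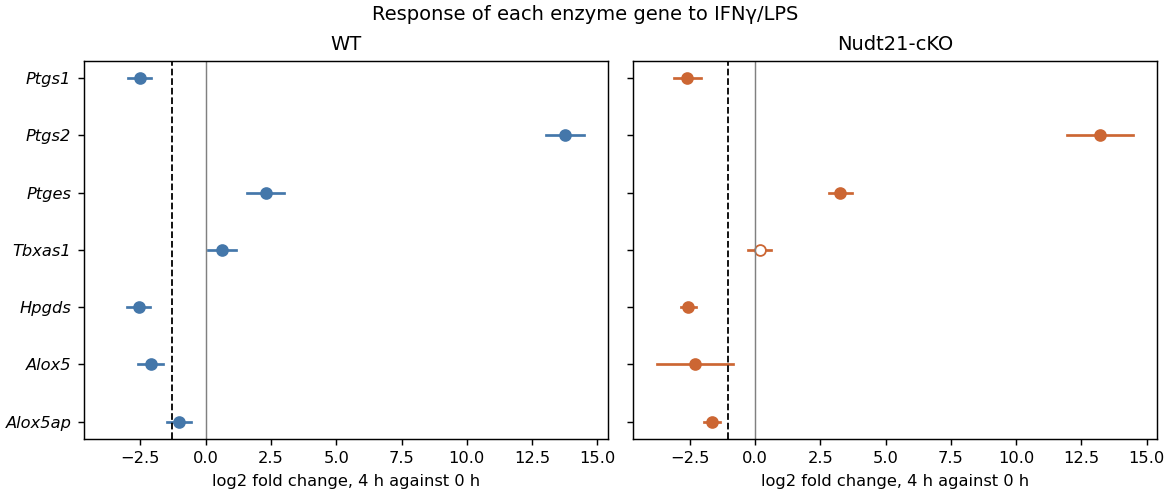
Log2 fold change of each enzyme gene between 4 h and 0 h in WT and in Nudt21-cKO, with 95% confidence intervals from limma (2 samples per group). Filled points were called and open points were not, and the dashed line is the median of all genes tested (-1.27 in WT and -1.05 in cKO); Ptgs2 lies apart from all others at 13.77 and 13.22.

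Of the cyclooxygenases, Ptgs2 was nearly silent at 0 h. Coverage in WT was 7.77 and 6.13, and in cKO it was 6.92 and 13.5. After stimulation it reached 111209 and 85893 in WT against 94803 and 91854 in cKO. Every stimulated sample was far above every unstimulated one, and the genotypes overlapped at both times. The log2 fold change was 13.77 in WT (SE 0.23, limma adjusted p = 0.00178) and 13.22 in cKO (SE 0.40, adjusted p = 0.00137). Relative to the median gene the rises were 15.04 and 14.27. By mean coverage Ptgs2 was gene number 17 of 21080 in stimulated WT and number 20 in stimulated cKO, and it alone held 0.645% and 0.529% of the summed coverage. The genotypes differed by -0.07 at 4 h, with an interval from -0.63 to 0.50, and by 0.48 at 0 h, with an interval from -0.83 to 1.79. Relative to the median gene these were -0.37 and 0.38. Without WT replicate 1 the difference at 4 h turned to 0.12, and it was not called either way.

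The letters around the start of Ptgs2 are shown because it was the gene with the widest change of the group. RefSeq promoter windows on GRCm38.p6, from 250 bases before to 50 bases after the annotated start, were found for 6 of the 7 genes, and Alox5ap had no entry. In the Ptgs2 window on the plus strand of chromosome 1, matches to the C/EBP letters TTNNGNAA began 69 and 25 bases before the start, and a CRE half-site (TGACG, here on the opposite strand) began 13 bases after it and overlapped an E-box (CACGTG) that began 16 bases after it. Capitals mark the matched letters.
Ptgs2 C/EBP, chr1:150099953-150099978: ctgcggttcTTGCGCAActcactgaa
Ptgs2 second C/EBP, chr1:150099997-150100022: tggtgggggTTGGGGAAagcctaagc
Ptgs2 CRE half-site, chr1:150100034-150100058: gtcaccactaCGTCAcgtggagtcc
Ptgs2 E-box, chr1:150100037-150100062: accactacgtCACGTGgagtccgctt
With both strands searched, 40.7% of all 32851 windows of that length held the C/EBP letters, 20.8% the CRE half-site and 7.2% the E-box. No member window held the ISRE pattern, the GAS letters TTCNNNGAA or the NF-kB pattern, which were in 3.4%, 8.3% and 8.5% of all windows. That says only that those letters are not in these windows.

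Ptgs1 went the other way. Its coverage at 0 h was 505 and 442 in WT against 281 and 345 in cKO, and at 4 h it was 83.1 and 81.3 in WT against 55.3 and 48.4 in cKO. Both cKO samples were below both WT samples at each time, and all stimulated samples were below all unstimulated ones. Stimulation lowered it 5.74-fold in WT (limma adjusted p = 0.00323) and 6.01-fold in cKO (adjusted p = 0.00266), and relative to the median gene it fell by 1.25 and 1.54 on the log2 scale. The genotype difference was a log2 fold change of -0.60 at 0 h (SE 0.17, limma adjusted p = 0.209) and -0.67 at 4 h (SE 0.12, limma adjusted p = 0.0775). These are 1.52-fold and 1.59-fold lower levels, close to the 1.5-fold limit of the call. The call at 0 h was lost without WT replicate 1 (-0.51), WT replicate 2 (-0.70) or cKO replicate 3 (-0.45), and that at 4 h without WT replicate 1 (-0.65) or cKO replicate 4 (-0.57). Relative to the median gene the differences were -0.70 and -0.97. In each single sample the ratio of Ptgs2 to Ptgs1 was higher in cKO than in WT, with 0.0154 and 0.0139 in WT against 0.0246 and 0.0392 in cKO at 0 h, and 1339 and 1057 in WT against 1714 and 1900 in cKO at 4 h. These ratios, like those of other pairs below, were chosen after the values were seen and were not tested. Ptgs1 shares 148 of its 3884 exon bases with Gm43621 on the opposite strand, and because the library kit does not mark strand, reads from such a shared stretch cannot be told apart.

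Among the terminal synthases, Tbxas1 showed the largest genotype difference of the 7 genes at both times. Its coverage at 0 h was 2235 and 2364 in WT against 1069 and 1179 in cKO. At 4 h it was 3175 and 3901 in WT against 1373 and 1173 in cKO. The groups did not overlap at either time, and the highest cKO sample was below the lowest WT sample across both times. It was 2.05-fold lower in cKO at 0 h (log2 fold change -1.03, SE 0.12, limma adjusted p = 0.0923) and 2.77-fold lower at 4 h (-1.47, SE 0.18, limma adjusted p = 0.0563). Relative to the median gene these were -1.13 and -1.78, and after median-centring the difference at 4 h reached an adjusted p of 0.0493 (-1.81). The call held with any single sample left out, with values from -1.10 to -0.96 at 0 h and from -1.62 to -1.32 at 4 h. The genotype difference at 4 h was not called as different from that at 0 h (interaction -0.44, interval from -0.99 to 0.11, limma adjusted p = 0.314).

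Stimulation did not lower Tbxas1. In WT it rose 1.53-fold (log2 fold change 0.61, SE 0.17, limma adjusted p = 0.0526), and both stimulated samples were above both unstimulated ones. That call was lost without WT replicate 1 at 0 h (0.57), WT replicate 2 at 0 h (0.66) or WT replicate 2 at 4 h (0.47), and with quantile normalization (0.56). In cKO the values at the times overlapped, with a log2 fold change of 0.18 (interval from -0.25 to 0.60, adjusted p = 0.321). Since the median gene fell, the changes relative to it were 1.89 in WT and 1.23 in cKO, and with median-centring the rise in cKO was called (1.38, limma adjusted p = 0.00431). Tbxas1 is also known as a gene of platelets and megakaryocytes. The summed coverage of 6 megakaryocyte or platelet markers was 695 to 824 in WT and 639 to 684 in cKO at 0 h. At 4 h it was 158 to 200 in WT and 168 to 194 in cKO, which overlapped. All 6 markers had a mean of at least 1 in every group, and most of the sum was Ppbp and Itga2b. Gp9, a defining platelet gene, had a mean of 14.3 in WT and 11.6 in cKO at 0 h, and 11.1 and 3.49 at 4 h. Gp1bb, another, had 10.02 and 4.21 at 0 h, and 4.74 and 1.21 at 4 h. Gp6 (3.64 and 8.70) and Itga2b (57.8 and 75.8) were at the higher mean in cKO at 4 h. The part of these cells in the Tbxas1 values was not tested. Tbxas1 shares 144 of its 9094 exon bases with Gm42962 on the opposite strand.

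The Tbxas1 window is shown because this gene carried the widest genotype difference. It lies on the plus strand of chromosome 6, at chr6:38918736-38919035. This is inside the gene interval given below, so its start is a RefSeq start within the gene. The window held the TATA box letters TATAAA beginning 11 bases before that start and the AP-1 letters TGANTCA beginning 61 bases before it.
Tbxas1 TATA box, chr6:38918965-38918990: ccttcctcttTATAAAgaaaggcaca
Tbxas1 AP-1, chr6:38918916-38918940: taaagttgcTGATTCAttgccctga
The TATA box letters were in 13.6% and an AP-1 match in 7.8% of all windows, and no other member window held either. The PU.1 core GAGGAA, found in 28.3% of all windows, was in each of the 6 member windows. PU.1 is a transcription factor of macrophages, and a match is a description of letters and not of binding.

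Ptges, the inducible prostaglandin E2 synthase, was low at 0 h, with a coverage of 68.6 and 56.8 in WT against 59.9 and 49.7 in cKO. At 4 h it was 352 and 266 in WT against 514 and 539 in cKO. The genotypes overlapped at 0 h (-0.19, or -0.29 relative to the median gene), and after stimulation both cKO samples were above both WT samples. Stimulation raised it 4.89-fold in WT (log2 fold change 2.29, SE 0.23, limma adjusted p = 0.00655) and 9.63-fold in cKO (3.27, SE 0.14, adjusted p = 0.00168), or 3.56 and 4.32 relative to the median gene. The genotype difference at 4 h was 1.72-fold (0.78, SE 0.19, limma adjusted p = 0.103). That is 0.48 above the median gene, and the call was lost when samples were centred on their medians (0.45), quantile normalized (0.47) or scaled to equal totals (0.57). It was also lost without WT replicate 2 (0.58), cKO replicate 3 (0.82) or cKO replicate 4 (0.75). The difference between the genotype effects at the times was 0.98 (interval from 0.28 to 1.68) and did not pass adjustment in limma (adjusted p = 0.129).

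Hpgds, the prostaglandin D2 synthase of blood-forming cells, was among the strongly covered genes at 0 h, with 2397 and 2392 in WT against 2428 and 2553 in cKO. After stimulation it was 377 and 430 in WT against 436 and 414 in cKO. The stimulated samples of either genotype were below all the unstimulated ones. It was 5.95-fold lower with stimulation in WT (log2 fold change -2.57, SE 0.14, limma adjusted p = 0.00314) and 5.86-fold lower in cKO (-2.55, SE 0.09, adjusted p = 0.00149), or -1.30 and -1.50 relative to the median gene. The genotypes differed by 0.06 at 0 h, with an interval from -0.26 to 0.37, and by 0.08 at 4 h, with an interval from -0.32 to 0.47. Relative to the median gene these were -0.04 and -0.23, and after median-centring -0.04 and -0.26, of opposite sign. Hpgds is also known in mast cells, and 5 of 10 mast cell markers were found. Their summed coverage was 54.6 to 73.5 in WT and 58.9 to 64.9 in cKO at 0 h, and 464 to 510.4 in WT and 962 to 1029 in cKO at 4 h. Most of the sum at 4 h was Hdc, the histidine decarboxylase, with a mean of 32.0 in WT and 27.6 in cKO at 0 h and of 459.9 and 965 at 4 h. Kit was between 20.9 and 35.7 in all samples, Cpa3 did not exceed 6.74, and Fcer1a and Mcpt1 were listed at 0 in every sample at 4 h. The part of such cells in the Hpgds values was not tested.

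Within a sample the makeup of the terminal synthases can be read from their shares of the summed coverage of Ptges, Tbxas1 and Hpgds, which do not depend on library scaling. Tbxas1 held 47.5% and 49.1% in WT against 30.1% and 31.2% in cKO at 0 h, and 81.3% and 84.9% in WT against 59.1% and 55.2% in cKO at 4 h. Hpgds held 51.0% and 49.7% in WT against 68.3% and 67.5% in cKO at 0 h. After stimulation Hpgds held 9.66% and 9.35% in WT against 18.8% and 19.5% in cKO. Tbxas1 therefore took the smaller share in both cKO samples at each time, and Hpgds the larger. Ptges held 1.46% and 1.18% in WT against 1.68% and 1.31% in cKO at 0 h, which overlapped, and 9.01% and 5.78% in WT against 22.1% and 25.3% in cKO at 4 h. Tbxas1 coverage was 9.03 and 14.7 times that of Ptges in stimulated WT and 2.67 and 2.18 times in stimulated cKO. The shares were not tested, and a share that falls for one gene raises the others.

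**Figure D3:**
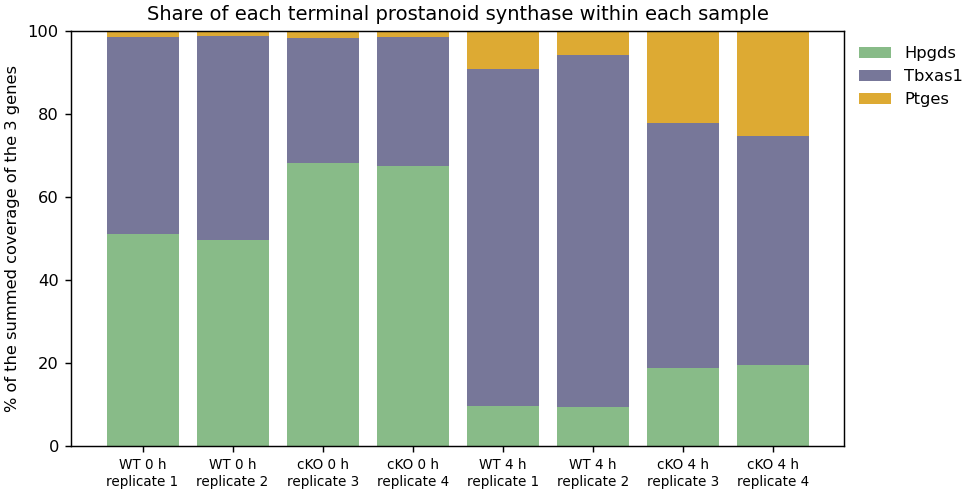
Share of Hpgds, Tbxas1 and Ptges in the summed coverage of these 3 terminal prostanoid synthases, in percent, for each of the 8 samples. The Tbxas1 share is smaller in cKO than in WT at both times, and the Ptges share at 4 h is 22.1% and 25.3% in cKO and 9.01% and 5.78% in WT.

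On the leukotriene branch, Alox5ap was the highest gene of the group at 0 h. Its coverage was 3419 and 3232 in WT against 4377 and 4794 in cKO, and after stimulation it was 1537 and 1747 in WT against 1466 and 1425 in cKO. Both cKO samples were above both WT samples at 0 h and below both at 4 h. The genotype difference was 1.38-fold at 0 h (log2 fold change 0.46, SE 0.12, limma adjusted p = 0.185), under the 1.5-fold limit, and -0.18 at 4 h (interval from -0.56 to 0.20). Relative to the median gene it was 0.36 at 0 h and -0.49 at 4 h. The change of the effect from 0 h to 4 h was -0.64 (SE 0.16, interval from -1.05 to -0.24, limma adjusted p = 0.103). It passed adjustment after median-centring (-0.91, adjusted p = 0.0363). It also passed with an intensity trend on the deposited scale (-0.64, adjusted p = 0.0266). Without these settings no gene of the group was called in this comparison, beside 2.28% of all genes called higher and 0.761% lower, and 2 had an unadjusted limma p under 0.05, beside 22.1% of all genes.

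With stimulation Alox5ap was 2.03-fold lower in WT (log2 fold change -1.02, SE 0.14, limma adjusted p = 0.0121) and 3.17-fold lower in cKO (-1.66, SE 0.10, adjusted p = 0.00238). In WT this was less than the fall of the median gene, so that relative to it Alox5ap was at 0.25, and after median-centring the sign was positive (0.43) and not called. In cKO it was at -0.61 relative to the median gene, and after median-centring (-0.46) the fall was under the 1.5-fold limit. Alox5ap shares 189 of its 1420 exon bases with the antisense gene Gm19719.

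Alox5 was low throughout. Its coverage was 42.3 and 37.8 in WT against 48.3 and 45.3 in cKO at 0 h, and 8.68 and 9.67 in WT against 6.42 and 13.9 in cKO at 4 h. Every stimulated sample was below every unstimulated one, and the cKO samples at 4 h lay on either side of the WT samples. Stimulation lowered it 4.33-fold in WT (limma adjusted p = 0.0041) and 4.91-fold in cKO (adjusted p = 0.0249), or -0.84 and -1.24 relative to the median gene. The call in cKO was lost without cKO replicate 3 at 0 h (-2.25) or cKO replicate 4 at 0 h (-2.34), and after median-centring (-1.09) or quantile normalization (-1.04). The genotypes differed by 0.22 at 0 h (interval from -0.16 to 0.61) and by 0.05 at 4 h (interval from -1.40 to 1.49), or 0.12 and -0.26 relative to the median gene. The value at 4 h was -0.29 after median-centring, -0.03 without WT replicate 1 and -0.50 without cKO replicate 4. In single samples Alox5ap coverage was 80.8 to 106 times that of Alox5 at 0 h and 103 to 228 times at 4 h.

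Both leukotriene genes are abundant in neutrophils, and the single neutrophil markers did not all differ in the same direction between genotypes. The summed coverage of 10 neutrophil markers was 24047 to 26614 in WT and 27864 to 36943 in cKO at 0 h, and 18021 to 22278 in WT and 22746 to 25818 in cKO at 4 h. The sum was higher in cKO at both times, while Alox5ap was higher at 0 h and lower at 4 h. Of these markers, 10 in WT and 9 in cKO had a mean coverage of at least 1 at each time, and most of the sum was S100a8, S100a9 and Ngp. The mean was higher in cKO for 8 of the 10 markers at 0 h and for 7 at 4 h. For S100a8 it was 6837 in WT and 8311 in cKO at 0 h and 5155 and 6732 at 4 h, and for S100a9 11567 and 15681 at 0 h and 11033 and 11570.0 at 4 h. Those with the lower mean in cKO were Retnlg at both times (46.8 against 24.6, and 3.51 against a listed 0), Ly6g at 0 h, and Mpo (100.9 against 76.5) and Elane (100.2 against 90.6) at 4 h. Ly6g, a defining neutrophil gene, did not exceed 7.37 in any sample. It was listed at 0 in both cKO samples at 0 h and had a mean of 2.05 in WT and 3.58 in cKO at 4 h. The part of these cells in the values was not tested. Eosinophil or basophil markers summed to 715 to 1006 in WT and 491 to 535 in cKO at 0 h, and to 369 to 388 and 381 to 400.3 at 4 h, where the genotypes overlapped. Dendritic cell markers summed to 11.6 to 19.4 in WT and 12.4 to 15.4 in cKO at 0 h, and to 1229 to 1952 and 1040 to 1073 at 4 h, most of it Clec9a. T or B cell markers did not exceed a sum of 4.67. Fibroblast markers summed to 86.9 to 192.7 in WT and 154.8 to 222.1 in cKO at 0 h. At 4 h they summed to 16.4 to 92.4 in WT and 80.7 to 116.3 in cKO. The genotypes overlapped at both times, and the mean was higher in cKO for 4 of the 5 markers at each.

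**Figure D4:**
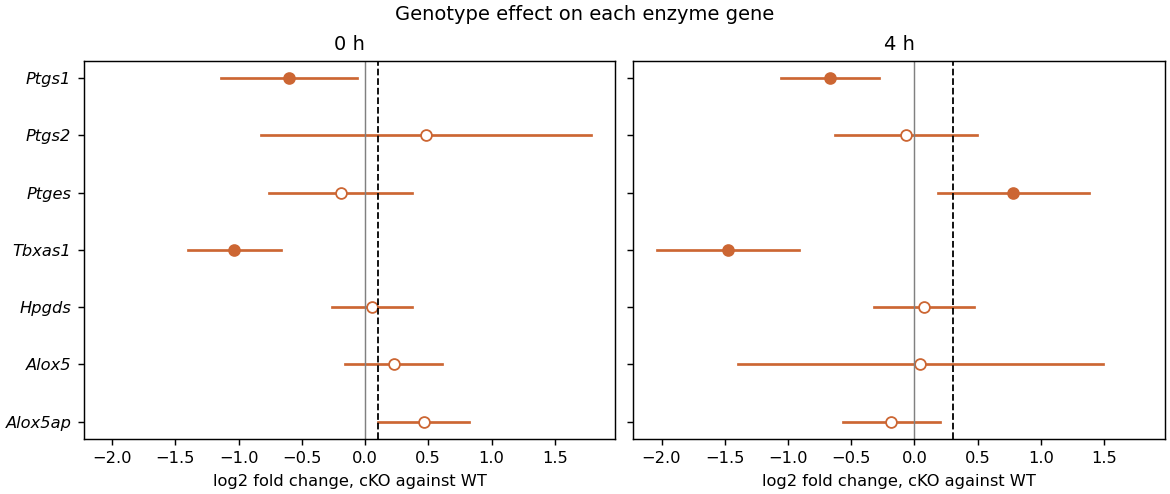
Log2 fold change of each enzyme gene between Nudt21-cKO and WT at 0 h and at 4 h, with 95% confidence intervals from limma (2 samples per group). Filled points were called at a fold change above 1.5 with p under 0.05, and the dashed line is the median of all genes tested (0.10 at 0 h and 0.31 at 4 h); Tbxas1 is lowest at both times, at -1.03 and -1.47.

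The members differed in their 3′ ends. Nudt21 is known to bind UGUA motifs upstream of cleavage sites, so the motif was counted in the 3′UTR of the principal annotated transcript of each gene in GENCODE M21 on GRCm38, written with T. Hpgds (2631 bases) held 18, Ptgs2 (2445 bases) 14 and Ptges (3106 bases) 10. Alox5ap (419 bases) held 3, Alox5 (642 bases) 2, and Ptgs1 (921 bases) and Tbxas1 (215 bases) 1 each. Over 20763 coding genes the median was 4 motifs in 847 bases, and 83.49% had at least 1. The genes called lower in cKO were those with 1 motif, and the genes with the most motifs, Hpgds and Ptgs2, were not called between genotypes. Per kilobase of 3′UTR this order did not hold, since Tbxas1 had 4.65, near the median of 4.95 over coding genes, and Ptges, called higher, had 3.22 and Alox5, not called, 3.12. This count over 7 genes is a description, the use of 3′ ends was not measured here, and the coverage values do not separate long from short 3′ ends. The single motifs of Ptgs1 and Tbxas1 and the last one of Ptges are shown because those genes were called between genotypes, each within the last exon (exon 11 of Ptgs1, 13 of Tbxas1 and 3 of Ptges), with the motif in capitals.
Ptgs1, plus strand, chr2:36251812-36251833: cttttagaaTGTAgaattccgt
Tbxas1, plus strand, chr6:39084394-39084415: gaagcacttTGTAatggtaaca
Ptges, minus strand, chr2:30889496-30889517: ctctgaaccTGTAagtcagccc
Counted from the motif to the annotated end of the 3′UTR, they lie 452, 183 and 38 bases away.

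On GRCm38 the genes lie on 4 chromosomes. Ptgs1 is at chr2:36230426-36252272 on the plus strand with 11 exons, and Ptges is at chr2:30889471-30929863 on the minus strand with 3. Ptgs2 is at chr1:150100031-150108227 on the plus strand with 10 exons, and Alox5ap is at chr5:149264767-149288153 on the plus strand with 5. On chromosome 6 are Tbxas1 (38875404 to 39084585, plus strand, 13 exons), Hpgds (65117293 to 65144908, minus strand, 6 exons) and Alox5 (116410077 to 116461178, minus strand, 14 exons). The genes of the shared chromosome did not share a response, since Tbxas1 rose with stimulation in WT and the other two fell.

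The genes whose log2 coverage followed each member most closely over the 8 samples were sought among 12023 genes whose mean coverage reached 10. The samples fall into 2 clusters by time, so that genes can correlate through their change with stimulation alone, and the values only describe. For Tbxas1 the highest Pearson r were those of Hsp90b1 (0.988), Sfr1 (0.980) and Hdac9 (0.977). For Ptgs2 they were those of Tgtp2, Tarm1 and Gbp5, for Ptges those of AW011738, H2-Q7 and Intu, and for Hpgds those of Fmo5, Otulinl and Tpcn2. For Ptgs1 they were those of Poglut2, Lactb2 and Klhl26, for Alox5ap those of Tirap, Ppp1cc and Eif3e, and for Alox5 those of Ccdc159, Vmn2r29 and Zc3h8. All these r were at least 0.977.

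The rest of the pathway was read from a list of 68 other genes of eicosanoid synthesis, breakdown and reception, of which 66 were found. Of 59 tested at 0 h, 6 were higher and 9 lower in cKO, that is 10.2% and 15.3%, beside 8.99% and 5.61% of all genes. Of 50 tested at 4 h, 8 were higher and 4 lower, that is 16% and 8%, beside 20.8% and 4.17% of all genes. With stimulation 8 of 56 rose and 34 fell in WT, that is 14.3% and 60.7%, beside 11.9% and 55.1% of all genes. In cKO 10 of 55 rose and 33 fell, that is 18.2% and 60%, beside 13.7% and 53.2%. The median log2 fold change of the list was -0.17 at 0 h and 0.11 at 4 h, where that of all genes was 0.10 and 0.31. An adjusted limma p under 0.05 between genotypes was reached by 1 of the 59 at 0 h (Alox12e), beside 1.03% of all genes. At 4 h it was reached by 3 of the 50 (Cbr2, Pla2g2e and Ptgir), beside 3.86%. Alox12e was listed at 0 in both cKO samples at 0 h, and Cbr2 and Pla2g2e in both WT samples at 4 h. After median-centring Cbr2 still passed at 4 h (limma adjusted p = 0.0240), and Pla2g2e (0.0661) and Ptgir (0.0719) did not.

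**Figure D5:**
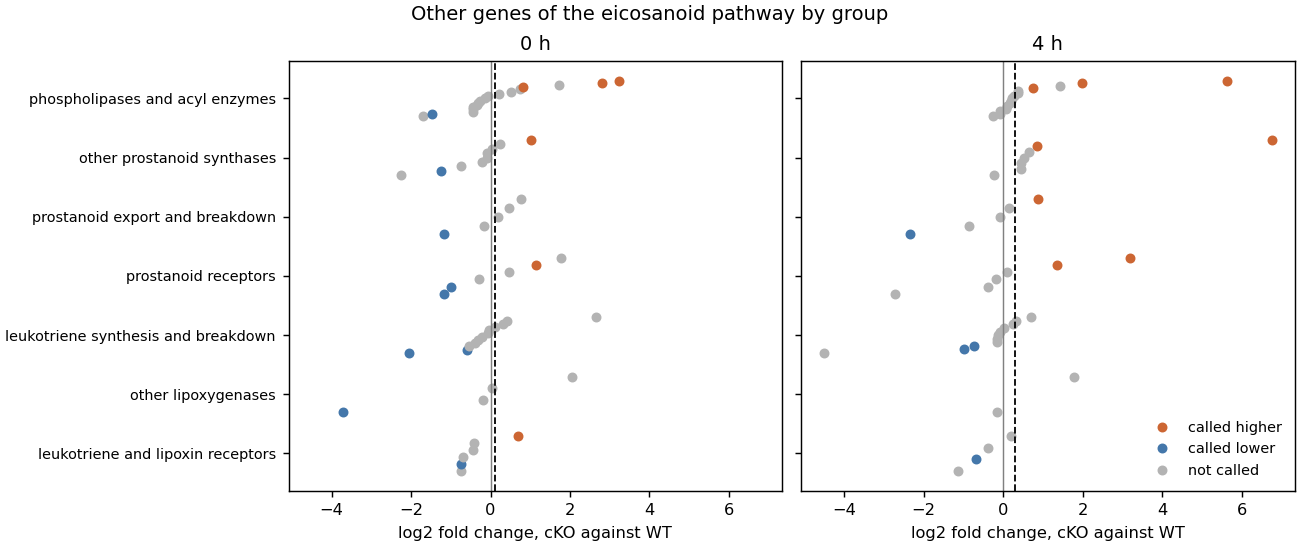
Log2 fold change between Nudt21-cKO and WT of the other pathway genes tested (59 at 0 h and 50 at 4 h, 1 point each), by group of the list, with the median of all genes as a dashed line. Orange points were called higher and blue points lower; points beyond 3 in either direction are genes with a low coverage in a group, and their position depends on the pseudocount of 0.1.

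At the head of the pathway, Pla2g4a, the cytosolic phospholipase A2 that frees arachidonic acid, rose with stimulation in WT from 174 and 177 to 1163 and 1268 (6.92-fold, limma adjusted p = 0.00267), and in cKO from 128 and 132 to 1131 and 1152. It was not called between genotypes at either time. Acsl1, which activates long-chain fatty acids, rose in WT from 620 and 720 to 18095 and 20409. Mgll, which releases arachidonic acid from 2-arachidonoylglycerol, was higher in cKO at 4 h, with 100.2 and 103 against 20.9 and 31.3 in WT (3.96-fold, limma adjusted p = 0.0584). Dagla, which makes 2-arachidonoylglycerol, fell in WT from 112 and 113 to 1.32 and 5.96, a call that was lost without WT replicate 1 or 2 at 0 h (-5.26 and -5.25). Pla2g7, which degrades platelet-activating factor, was higher in cKO at 0 h, with 6825 and 7302 against 3850 and 4115 (1.77-fold, limma adjusted p = 0.108). Among the secreted phospholipases, Pla2g2e was higher in cKO at 0 h, with 118 and 135 against 10.5 and 30.2, and at 4 h it was at 3.11 and 7.54 in cKO and listed at 0 in both WT samples. Pla2g5 was called higher at 0 h at a mean of 1.99 against 0.17, and Pla2g4b was called lower at a mean of 1.32 against 3.79. At 4 h Pla2g5 was too low to be tested, with 0.371 and 0.741 in WT and a listed 0 in both cKO samples. The call of Pla2g2e at 0 h was lost without either cKO sample (2.91 without replicate 3 and 2.72 without replicate 4). Those of Pla2g5 and Pla2g4b were lost with an intensity trend, and also without WT replicate 2 (2.17) or either cKO sample (3.68 and 2.81) for Pla2g5 and without either WT sample (-1.54 and -1.42) for Pla2g4b. The Pla2g5 call was lost with quantile normalization too (3.02).

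Among the other enzymes that make or inactivate prostanoids, Hpgd, the dehydrogenase that inactivates prostaglandins, was lower in cKO at both times. Its coverage was 1819 and 2124 in WT against 812 and 952 in cKO at 0 h, and 38.3 and 41.6 in WT against 5.15 and 11.6 in cKO at 4 h. It was 2.24-fold lower at 0 h (limma adjusted p = 0.11) and 5.11-fold lower at 4 h (limma adjusted p = 0.0849). Both cKO samples were below both WT samples at each time, and the call at 4 h was lost without WT replicate 1 (-2.41) or 2 (-2.29). Ptgr1, a prostaglandin reductase, was higher in cKO at 4 h, with 266 and 272 against 123 and 173, and that call was lost after median-centring (0.54), quantile normalization (0.53) or scaling to equal totals (0.67) and without cKO replicate 3 (0.86) or 4 (0.89). The carbonyl reductase Cbr3 was lower in cKO at 0 h, with 231 and 241 against 551 and 574. At 4 h it was 44.5 and 57.0 against 19.2 and 54.0, which overlapped and was not called (0.64). Its relative Cbr2 was higher at 0 h, with 118 and 149 against 53.0 and 80.7, and at 4 h it was at 9.14 and 12.8 in cKO and listed at 0 in both WT samples. The Cbr2 call at 0 h was lost with equal totals (0.90) and without WT replicate 2 (0.71), cKO replicate 3 (1.19) or cKO replicate 4 (0.85).

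Of the receptors, Ptgir, which binds prostacyclin, was higher in cKO at 4 h, with 79.5 and 87.7 against 30.6 and 34.8 (2.55-fold, limma adjusted p = 0.0499). After median-centring it was still called (1.02), but its limma adjusted p was 0.0719. Ptger3, a prostaglandin E2 receptor, was higher in cKO at both times, with 11.5 and 13.7 against 5.58 and 5.68 at 0 h and 9.68 and 18.3 against 0.571 and 3.17 at 4 h. The call at 0 h was lost with all 8 samples in the fit, and that at 4 h with no filter, with equal totals (2.98) and without WT replicate 1 (2.04), cKO replicate 3 (3.64) or cKO replicate 4 (2.72). Ptger1, another of them, was lower at 0 h, with 9.30 and 10.5 against 22.5 and 22.6. Ptger4, which was singled out after its values were seen, was lower in cKO at 0 h, with 222 and 284 against 497 and 506, and at 4 h it was 1740 and 1744 against 1811 and 2123, which was not called. The call at 0 h was lost without WT replicate 1 (-0.99) or 2 (-1.01). Ltb4r1, a receptor of leukotriene B4, was called higher at 0 h, with 69.2 and 88.2 against 43.4 and 53.9. That call was lost with no filter, with equal totals, with all 8 samples in the fit and with any 1 sample left out (0.52 to 0.87). At 4 h Ltb4r1 was 6.40 and 16.4 in cKO against 12.1 and 42.8 in WT, which overlapped and was not called (-1.14). Cysltr2, a receptor of cysteinyl leukotrienes, rose with stimulation in WT from 43.0 and 54.5 to 370.4 and 378 and was lower in cKO at 4 h, at 214 and 250.2. The latter call was lost without WT replicate 1 (-0.71), WT replicate 2 (-0.68) or cKO replicate 3 (-0.58). Fpr2, which binds lipoxin A4 among other ligands, rose in WT from 46.7 and 102 to 2761 and 3526.

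Of 13 listed genes of leukotriene synthesis and breakdown, limma called 0 higher and 2 lower in cKO at 0 h, 16.7% of the 12 tested, beside 8.99% and 5.61% of all genes. At 4 h it called 0 higher and 2 lower, 18.2% of the 11 tested, beside 20.8% and 4.17%. The dipeptidase Dpep2 had 4562 and 4622 in WT against 2995 and 3086 in cKO at 0 h, and 1858 and 2185 in WT against 1181 and 1256 in cKO at 4 h, and it was called at both times. Its call at 4 h was lost without cKO replicate 3 (-0.77) or 4 (-0.68). The gamma-glutamyl transferase Ggt5 was called at 4 h, with 15.8 and 18.1 in WT against 7.59 and 9.57 in cKO, and its call was lost without WT replicate 1 (-0.89). Dpep3, a relative of Dpep2, was called at 0 h, with 32.1 and 40.9 in WT against 7.74 and 9.56 in cKO, and its call was lost with all 8 samples in the fit. The lipoxygenase Alox12e was called lower at 0 h from 1.20 and 1.21 in WT to a listed value of 0 in both cKO samples, so that no fold is given, and this call was lost with an intensity trend. Lta4h, which makes leukotriene B4, and Ltc4s, which makes leukotriene C4, were not called between genotypes, and both fell with stimulation in WT, from 1516 and 1624 to 370.4 and 484 and from 182 and 231 to 6.32 and 24.2. Relative to the median gene these changes were -0.62 and -2.76, and after median-centring (-0.44 and -2.58) neither was called.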

How the data were processed

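Paired-end RNA-seq of 8 BMDM samples was used. Per the labels' processing notes, HISAT2 2.2.1 and StringTie 2.1.7 were used with GRCm38 (mm10), and the study quantified RefSeq genes. The authors deposited 2 tables, 1 for each time, with a coverage signal per gene and sample. Its unit is unnamed in the files and was inferred: of 3872 values from 0.02 to 1 in genes with 1 GENCODE transcript, 37.4% became whole numbers of bases (within 0.05) when multiplied by the transcript length, and 11.1% with a length 37 bases longer. The authors' fold changes and p-values in the same tables were not used. Columns of per-sample values not used numbered 0.

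Values stayed on the deposited scale. They were compared as log2(coverage + 0.1) by limma 3.58.1 (R 4.3.3), a scale that understates changes of low genes, over genes with a mean of at least 0.5. Calls needed a fold change above 1.5 and p under 0.05, and for the change of the genotype effect between times, fitted over all 8 samples, an adjusted p under 0.05. Stimulation was compared across the tables because no separate scaling of either was found. The script was tested on simulated data. The members and lists were chosen with earlier results of these data known. Named pathway genes were at most the 6 largest calls in each direction between genotypes at each time and the 4 largest rises and falls with stimulation in WT. Dpep2 at 0 h, Pla2g4a in cKO, Ptger4, Lta4h and Ltc4s were added after their values were seen. Likeness was taken as the 3 highest Pearson r for each member. Other settings tried were another pseudocount, filters, sample scalings, a variance trend, a fit of all groups, a replicate block and leaving out each sample. Promoter sequences came from RefSeq, gene models and transcripts from GENCODE M21. Protein sequences were not used here.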

Additional observations from a re-analysis of the deposited data

Results flagged for a closer look

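Alox5ap had genotype effects of opposite sign at the 2 times, 0.46 at 0 h and -0.18 at 4 h on the log2 scale, and the genotypes did not overlap at either. The difference between these effects was -0.64 and did not pass adjustment in limma on the deposited scale without an intensity trend (adjusted p = 0.103). It passed with the trend (adjusted p = 0.0266) and after median-centring (-0.91, adjusted p = 0.0363).

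Cbr2, a carbonyl reductase of the pathway list, had a genotype effect that differed between the times by 5.75 (limma adjusted p = 0.00482). At 4 h its WT values were both listed at 0, so this value depends on the pseudocount and gives no fold. The call was lost with the replicate number as a block (limma adjusted p = 0.0649) and with the block and median-centring (adjusted p = 0.0598).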

How the results depend on the processing

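Of the members' log2 fold changes under the alternatives that kept all samples, 286 kept their direction and their side of the threshold, 10 lost a call, 4 gained one and 15 changed sign, and the cause was not tested. Median-centring, quantile normalization and equal totals turned Hpgds between genotypes to -0.036, -0.069 and -0.067 at 0 h and to -0.26, -0.25 and -0.13 at 4 h, Alox5 at 4 h to -0.29, -0.31 and -0.16, and the change of the Hpgds genotype effect between times to -0.24, -0.13 and -0.068. Median-centring turned Alox5ap with stimulation in WT to 0.43. Under these 3 scalings 0 members were called higher at 4 h, and the pathway list had 5 genes higher at 4 h. It had 7 lower at 4 h with median-centring and with quantile normalization. With stimulation in WT the list had 16 genes higher and 19 lower after median-centring, and 13 and 21 after quantile normalization. In cKO it had 15 and 21 lower under the same 2 settings, and 2 members were lower after median-centring. Over all genes, median-centring gave 5361 higher and 3581 lower of 16002 with stimulation in WT, and 5305 and 3758 of 16223 in cKO. Between genotypes at 4 h it gave 1552 higher and 1480 lower of 14950, and for the change of the genotype effect 174 and 172 of 16284. Counts over all genes under the other settings are not given here. For the change of the genotype effect 1 member, Alox5ap, was called lower after median-centring or with an intensity trend (limma adjusted p = 0.0363 and 0.0266). Of the list, 5 genes were called higher with the trend and 2 with no filter, and 1 lower after quantile normalization.

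Samples with the same replicate number deviated from their groups with a correlation of 0.02 between the times in both genotypes. With 2 samples a group these deviations mirror each other, so the value cannot tell whether such samples came from the same pool. With the number as a block, 0 genes of the list were called for the change of the genotype effect, also with median-centring, and Tbxas1 with stimulation in WT (0.61) lost its call. The block with median-centring gave 16 genes of the list higher and 20 lower in WT, 15 lower in cKO, 2 members lower in cKO, 0.43 for Alox5ap in WT and -0.24 for the change of the Hpgds genotype effect.

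With each sample left out in turn, where the lone sample of a group is assumed to vary like the others, 1 to 2 members were lower in cKO at 0 h, and at 4 h 0 to 1 were higher and 1 to 2 lower. The list had 2 to 6 genes higher at 0 h, 5 to 10 higher and 1 to 5 lower at 4 h, and for the change of the genotype effect 1 to 2 higher and 0 to 1 lower. Between genotypes at 4 h Ptgs2 ranged from -0.25 to 0.12, Alox5 from -0.50 to 0.60 and Hpgds from -0.018 to 0.17. The change of the genotype effect ranged from -0.21 to 0.083 for Ptgs1, from -0.73 to 0.37 for Alox5 and from -0.074 to 0.12 for Hpgds. With 2 pools a group the spread is itself poorly known, and low genes such as Alox5 and unstimulated Ptgs2 had wide intervals.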
